A study of Mus musculus with 4 samples.

Results

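The nuclei described here are 801 pigment nuclei without muscle genes, found among 32326 barcodes of single-nucleus RNA sequencing of the mouse retina. They were selected on their own RNA, so the genes of the rule are no finding. A nucleus was taken when the melanin genes Dct, Pmel, Mlana, Tyr and Tyrp1 had at least 4 unique molecular identifiers (UMIs, counted RNA molecules) in sum with at least 3 of the 5 genes detected. It also had to have no UMI of Rpe65 and at most 1 UMI of the smooth muscle genes Myh11, Acta2 and Smtn. Further limits were at most 2 UMIs of the collagens Col1a2 and Col3a1, at most 2 of the neuron genes Gad1, Slc6a9 and Slc17a6, at most 3 of the glia genes Slc1a3 and Glul, and at most 5% of UMIs from mitochondrial genes (mt-). The melanin criterion passed 2387 of 32299 nuclei under the mitochondrial limit, and 801 of these met the other limits. Muscle genes alone kept out 843 nuclei, Rpe65 alone 175, glia genes alone 161, neuron genes alone 42 and collagens alone 13.

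The 4 libraries came from left-eye retinal tissue of wild type mice, 2 animals at 5 months and 2 at 2.5 months, named donor 1 and donor 2 at each age; the labels give neither strain nor sex. Members numbered 134 and 361 at 5 months and 214 and 92 at 2.5 months. Age was the only difference that the labels name, but per the file headers the 5-month matrices were made with Cell Ranger 4.0.0 and the 2.5-month matrices with 7.1.0. In every age comparison the version and the age cannot be told apart. Library totals ran from 19608067 to 36320257 UMIs, and the median member had 2596.5 and 2948 UMIs at 5 months and 3064 and 3421.5 UMIs at 2.5 months. The sums over members were 409602 and 1208511 UMIs at 5 months and 692651 and 330904 at 2.5 months. The second 5-month library thus carried the least counting error and the second 2.5-month library the most. Levels are given as counts per 1000000 UMIs (CPM) of the summed members of a library. They count transcript ends, so they are compared between samples and classes and not between genes. In both donor 1 libraries the members held almost no RNA of Xist, the transcript of the inactive X chromosome (9.77 CPM at 5 months and 1.44 CPM at 2.5 months), and in both donor 2 libraries they held much (1844 CPM at 5 months and 1484 CPM at 2.5 months). Of the 801 members, 1 had a barcode that also occurs in another library.

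Pigment cells of the mammalian eye have separate embryonic origins. Melanocytes of the choroid and iris stroma arise from the neural crest, and their known identity genes are the transcription factors Sox10, Pax3 and Mitf and the receptors Kit, Ednrb and Erbb3. The pigment epithelia of retina, ciliary body and iris arise from the optic neuroepithelium, which is patterned by Pax6 and the Otx factors, and they use the same melanin enzymes. In both lineages the factor MITF is known to bind a short promoter element of the tyrosinase gene family, the M-box.

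Of the 5 melanin genes that chose the members, the 3 of the tyrosinase family carry the core letters of this element close to their starts. The 250 bases before the start are printed for these 3, because their counts enter the sum that chose the nuclei. Capitals mark TCATGTG or its reverse complement CACATGA, searched on both strands of the window.
Dct, chr14:118052247-118052496, minus strand: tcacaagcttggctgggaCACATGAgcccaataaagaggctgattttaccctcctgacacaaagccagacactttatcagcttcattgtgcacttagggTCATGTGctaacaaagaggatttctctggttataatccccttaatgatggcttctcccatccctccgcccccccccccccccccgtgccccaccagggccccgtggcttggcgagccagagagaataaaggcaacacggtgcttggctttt
Tyr, chr7:87493513-87493762, minus strand: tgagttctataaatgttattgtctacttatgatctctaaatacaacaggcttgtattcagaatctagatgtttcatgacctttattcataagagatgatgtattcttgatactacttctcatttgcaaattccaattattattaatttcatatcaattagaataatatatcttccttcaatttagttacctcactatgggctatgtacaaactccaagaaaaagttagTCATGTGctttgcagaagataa
Tyrp1, chr4:80833963-80834212, plus strand: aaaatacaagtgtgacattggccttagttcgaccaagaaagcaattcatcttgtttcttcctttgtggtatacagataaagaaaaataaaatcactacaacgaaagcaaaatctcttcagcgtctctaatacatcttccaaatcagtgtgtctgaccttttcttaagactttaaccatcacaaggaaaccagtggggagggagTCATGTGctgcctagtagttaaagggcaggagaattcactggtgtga
The sequences are RefSeq's on GRCm38.p6, read 5′ to 3′ in the sense of the gene. In Dct the element began 151 bases before the start, with a reverse copy at 232, in Tyr at 22 and in Tyrp1 at 47. GENCODE release M21 starts Tyrp1 at 80834123, within the printed window. Over all 32851 promoters of that table, 3.25% held TCATGTG on either strand and 12.3% its last 6 letters, CATGTG. Of 20 melanin and melanosome genes looked up, 15 had an entry, and 6 of these held TCATGTG: Dct, Tyr, Tyrp1, Slc24a5, Slc7a11 and Trpm1. Pmel and Mlana had no entry. A match describes letters in a window and was not read as a binding site.

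As the rule asked for them, the melanin genes were abundant in every library. Members held a median of 40 UMIs of the 5 genes, from 4 to 271, and all 5 were detected in 440 nuclei, 4 in 227 and 3 in 134. Dct (dopachrome tautomerase, chr14:118012790-118052244) was at 6855 and 7607 CPM at 5 months and 7496 and 6422 CPM at 2.5 months. Tyr (tyrosinase, the first enzyme of melanin synthesis, chr7:87424771-87493512) was at 2214 and 2031 CPM at 5 months and 2822 and 3255 CPM at 2.5 months. The libraries of the ages overlapped for Dct. For Tyr both 5-month libraries were below both 2.5-month libraries, which did not pass the age test over all genes (adjusted p = 0.997, log2 fold change -0.45 ± 0.27 SE). Tyrp1 (chr4:80834123-80851719), another enzyme of the pathway, was at 1560.0 and 1906 CPM at 5 months and 2082 and 2526 CPM at 2.5 months. Pmel, which builds the fibrils on which melanin is laid down (chr10:128704195-128720238), was at 1221 and 1839 CPM at 5 months and 1909 and 1762 CPM at 2.5 months. Mlana, a melanosome protein (chr19:29697824-29708634), was at 457 and 759 CPM at 5 months and 552 and 369 CPM at 2.5 months. At the edge of the rule, 28 members had a melanin sum of exactly 4 UMIs, and 359 nuclei that met all other limits had a sum of 3. With 1 UMI of Rpe65 another 94 nuclei fell outside, and with 2 muscle UMIs another 58.

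The label of these nuclei, melanocyte-like, was checked against lineage genes that the rule did not use, and it covered only part of them. A crest panel was taken as Sox10, Kit, Ednrb, Pax3 and Erbb3, and an optic panel as Pax6, Otx1, Otx2, Zic1 and Zic2. The optic panel was cut down from a longer list after values were seen, so the sets below are a description with no test. Of 801 members, 271 (33.8%) had at least 1 crest-panel UMI and 482 (60.2%) at least 2 optic-panel UMIs. The panels were nearly exclusive of each other. With crest-panel UMIs and at most 1 optic-panel UMI there were 231 nuclei (28.8%), called crest-panel nuclei below. With at least 2 optic-panel UMIs and no crest-panel UMI there were 442 (55.2%), called optic-panel nuclei. Another 40 nuclei (4.99%) had both and 88 (11%) neither. At stronger thresholds, 149 nuclei had at least 4 crest-panel UMIs and no optic-panel UMI, and 249 had at least 5 optic-panel UMIs and no crest-panel UMI. Another 1 had at least 4 crest-panel UMIs together with at least 5 optic-panel UMIs. The name melanocyte-like is therefore not used here for the members as a whole.

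**Figure D1:**
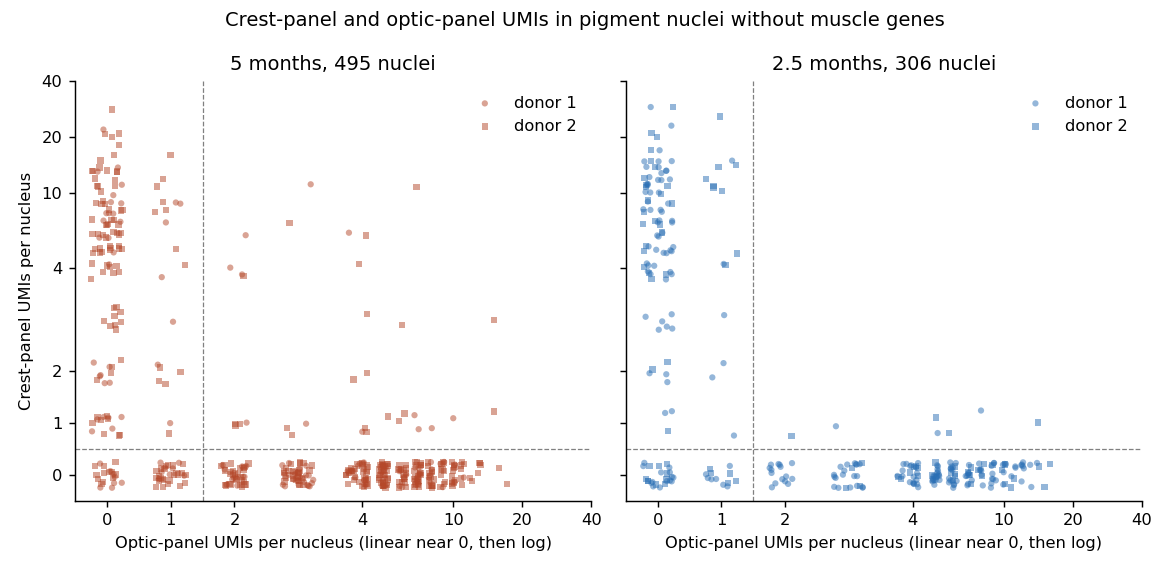
Each point is 1 member, at its UMIs of the optic panel (x axis) and the crest panel (y axis), with random jitter below 1 UMI, 5 months on the left and 2.5 months on the right; axes are linear near 0 and logarithmic above. Dashed lines set off nuclei with at least 1 crest-panel and at least 2 optic-panel UMIs, and the points lie along both axes, with 40 of 801 nuclei in the upper right field.

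All 4 libraries held both kinds of nuclei. Crest-panel nuclei made up 26.1% (Wilson 95% interval 19.4% to 34.1%) and 26% (21.8% to 30.8%) of members at 5 months, against 30.8% (25% to 37.3%) and 39.1% (29.8% to 49.3%) at 2.5 months. Intervals cover counting error only. Optic-panel nuclei made up 53% and 58.2% at 5 months and 57.9% and 40.2% at 2.5 months. Nuclei with both panels numbered 12 and 21 at 5 months and 3 and 4 at 2.5 months. They had more RNA than the rest, with medians of 4143.5 and 3802 UMIs at 5 months and 3637 and 3931 UMIs at 2.5 months. The medians were 2767 and 3023 UMIs at 5 months and 2711.5 and 3533 UMIs at 2.5 months in crest-panel nuclei and 2660 and 3003 UMIs at 5 months and 3220 and 3399 UMIs at 2.5 months in optic-panel nuclei. Nuclei with neither had fewer, with medians of 1686 and 2222 UMIs at 5 months and 2611 and 2303 UMIs at 2.5 months. The sets were cut at each nucleus's full depth, so nuclei with more UMIs reach both panels more readily and those with fewer more often reach neither. Whether nuclei with both panels are nuclei captured together was not tested.

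**Figure D2:**
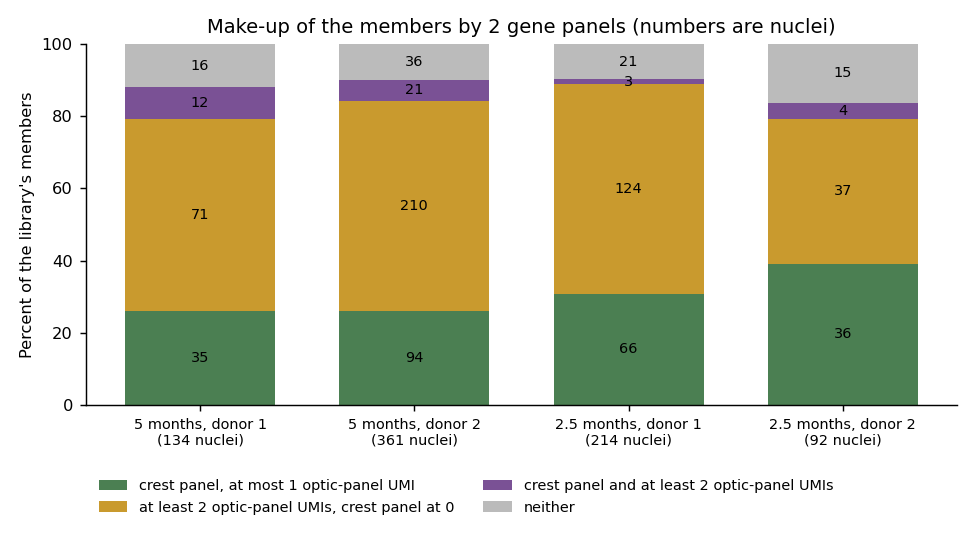
Stacked bars give the percent of each library's members in the 4 panel sets, with the number of nuclei written in each piece. Optic-panel nuclei are the largest piece in every library, by the narrowest margin in donor 2 of 2.5 months, with 36 crest-panel and 37 optic-panel nuclei.

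Thinned to a fixed depth of 1000 UMIs per nucleus, members had a crest-panel UMI in 27% and 25% at 5 months and 30.2% and 35.2% at 2.5 months, beside 33.8% over all members before thinning. Nuclei under 1000 UMIs were left out, which left 126 and 356 members at 5 months and 212 and 91 at 2.5 months. Of nuclei with at least 3 UMIs summed over a set of rod genes and no melanin-gene UMI, 2692 to 4284 per library were left. A crest-panel UMI was found in 1.45 to 1.93% of these at the same depth, so the members lay above the background of free RNA in every library. Ednrb, the endothelin receptor of melanoblasts, was found in members at 12.7% and 14.3% at 5 months and 17.9% and 30.8% at 2.5 months, against 0.63 to 1.52% of those other nuclei. Pax3 stood at 11.1% and 10.1% at 5 months and 16% and 16.5% at 2.5 months, against 0 to 0.0987%. Sox10 stood at 9.52% and 11.8% at 5 months and 11.3% and 9.89% at 2.5 months, against 0.0233 to 0.197%. In nuclei with at least 2 Rpe65 UMIs Sox10 stood at 11.1% and 11% at 5 months and 5.45% and 3.09% at 2.5 months. An optic-panel UMI was found in members at 54.8% and 55.9% at 5 months and 50.5% and 39.6% at 2.5 months. It was found in 29.7 to 36.2% of the nuclei with rod-gene UMIs and 37.1 to 50.8% of nuclei with at least 2 Rpe65 UMIs. In pigmented muscle nuclei, which met the other limits but had at least 3 muscle UMIs, it was found in 70.1 to 84%. Pax6, which amacrine neurons also use, was found in members at 44.4% and 43.8% at 5 months and 40.6% and 27.5% at 2.5 months. Its share was 14.8 to 27.5% in the nuclei with rod-gene UMIs, 6.36 to 9.56% with at least 2 Rpe65 UMIs and 62.8 to 75.5% in pigmented muscle nuclei. Otx2, which bipolar neurons and photoreceptors also use, stood at 10.3% and 11.8% at 5 months and 12.7% and 9.89% at 2.5 months in members. In the nuclei with rod-gene UMIs, the other nuclei below, it stood at 9.08 to 14.9%, so its share in members did not lie above theirs. As those nuclei have rod-gene UMIs, their Otx2 RNA can be their own and does not measure free RNA. Otx1 stood at 3.97% and 6.46% at 5 months and 5.19% and 6.59% at 2.5 months, against 0.0791 to 0.26% of the other nuclei. Zic1 stood at 9.52% and 14.6% at 5 months and 8.96% and 13.2% at 2.5 months, against 0.396 to 0.817% of the other nuclei and 0 to 0.909% of nuclei with at least 2 Rpe65 UMIs. Mc1r, the receptor for melanocyte-stimulating hormone, had UMIs in 0 of 801 members, which allows a share of nuclei with a UMI of up to 0.375%. The same held for Best1 of the pigment epithelium. Neither gene had enough UMIs to be tested against nuclei with at least 2 Rpe65 UMIs, so these zeros do not set the members apart from those.

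Marker genes of other cell types had measurable RNA in the members, and whether it came from other cells was not tested. The 10 rod markers summed to 3374 to 5225 CPM over the 4 libraries of members and to 4879 to 9953 CPM in the nuclei with rod-gene UMIs. The 8 Müller glia markers summed to 2131 to 3107 CPM in members, against 1201 to 2054 CPM in the nuclei with rod-gene UMIs. Of these markers the rule capped Slc1a3 and Glul. The 8 interneuron markers, which include Pax6, summed to 1420.3 to 1907 CPM in members. Fibroblast markers summed to 275 to 489.9 CPM, smooth muscle markers to 115 to 133 CPM, endothelial markers to 26.9 to 92.4 CPM and macrophage markers to 24.4 to 64.5 CPM. The Schwann cell list, the nearest other crest lineage, stood at 103 to 132 CPM, against 45.1 to 65 CPM in the nuclei with rod-gene UMIs. It stood at 79.5 to 146 CPM in crest-panel, 104 to 125 CPM in optic-panel and 114 to 210 CPM in pigmented muscle nuclei. The part of this RNA in the results below was not tested except where a value without it is given.

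The genes that set members furthest above the other nuclei came almost all from the crest-panel nuclei. Ranked by the lowest of the 4 library ratios to all other nuclei, among 7758 genes with enough UMIs, 19 of the leading 20 were higher in crest-panel than in optic-panel nuclei in every library and 1, Gm34609, was the other way round. The rule genes ranked 28 (Tyrp1), 29 (Dct), 40 (Tyr), 56 (Pmel) and 85 (Mlana) and are outside the leading 20. The other nuclei include the excluded pigment nuclei, among them pigmented muscle nuclei, in which the 5 melanin genes summed to 9487 to 13107 CPM. Their part in the ranks was not tested. Pax3, a paired-box factor of the neural crest, led with 173 and 165 CPM at 5 months and 245 and 389.8 CPM at 2.5 months in members, against 1.74 to 3.71 CPM in other nuclei. Within the members it was at 529.7 to 954 CPM in crest-panel nuclei and at 0 in optic-panel nuclei, as the panel fixes. Genes outside the panel had the same layout. Chsy3, a chondroitin sulfate synthase, was at 5811 to 7724 CPM in crest-panel nuclei and 44.6 to 163 CPM in optic-panel nuclei. Cdh19, a cadherin of crest-derived cells, was at 1177 to 1449 CPM and 0 to 5.58 CPM in the same order, and Cdh1, or E-cadherin, at 238 to 291 CPM and 0 to 2.35 CPM. The T-box factors Tbx1 and Tbx4 and the gap junction genes Gjb2, Gjb6 and Gjc3 were also among the 20. Gjb6 was at 88.7 to 189 CPM in crest-panel nuclei and 0 in optic-panel nuclei of every library. The list held the melanosome transporter Slc45a2, the cation channel gene Mcoln3, and the cell cycle kinase gene Cdk2. The annotated span of Cdk2 overlaps the start of Pmel on the other strand, and the counting is not stated to use strand, so reads of the overlap cannot be assigned. The others were Adgb, Scrg1, Fbxw25, G630064G18Rik, Gm10067, Gm12068 and Snhg7os.

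Genes of pigment production differed between the panel sets, mostly with the higher level in crest-panel nuclei. Of the 10 genes for melanin synthesis and melanosome ion transport, 7 were higher in crest-panel nuclei in every library and 1 lower. Of 28 measured genes for melanosome biogenesis and trafficking 14 were higher and 1 lower. Over all 10990 genes with at least 20 UMIs in both sets together, 16.9% were higher and 19.8% lower in every library. The median log2 ratio, with 5 CPM added to each mean, was 1.51 for the ion transport list and 0.66 for the trafficking list, beside -0.01 over all genes. The sets summed 113267 and 301670 UMIs at 5 months and 202880 and 135206 at 2.5 months for the crest panel, and 215579 and 717079 at 5 months and 425966 and 134632 at 2.5 months for the optic panel.

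Slc45a2, a melanosome transporter whose loss causes albinism in mouse and human, was at 433 and 743 CPM at 5 months and 547 and 732 CPM at 2.5 months in crest-panel nuclei, against 23.2 and 26.5 CPM at 5 months and 16.4 and 37.1 CPM at 2.5 months in optic-panel nuclei. The groups did not overlap, and the ratio of the means was 23.8. Slc24a5, a melanosome cation exchanger, was at 1845 and 1807 CPM at 5 months and 2129 and 2611 CPM at 2.5 months in crest-panel nuclei, against 436 and 452 CPM at 5 months and 505 and 527 CPM at 2.5 months in optic-panel nuclei. Oca2, the melanosome anion channel gene, was 2.77 times as high in crest-panel nuclei and Gpr143, the ocular albinism receptor, 6.51 times. Among the rule genes themselves, Pmel was 4.34 times and Tyrp1 3.4 times as high in crest-panel nuclei, both without overlap. Dct was at 1.55 times, Tyr at 1.11 times with overlap and Mlana at 1.07 times with overlap. The complex of Rab27a, Mlph and Myo5a, which hands melanosomes to actin, was higher in crest-panel nuclei of every library. Rab27a was higher by 2.02 times, Mlph by 6.84 times and Myo5a by 6.73 times. The exception was Slc7a11, the cystine importer that feeds pheomelanin synthesis, at 8.83 and 33.1 CPM at 5 months and 4.93 and 0 CPM at 2.5 months in crest-panel nuclei, against 172 and 233 CPM at 5 months and 296 and 565 CPM at 2.5 months in optic-panel nuclei.

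**Figure D3:**
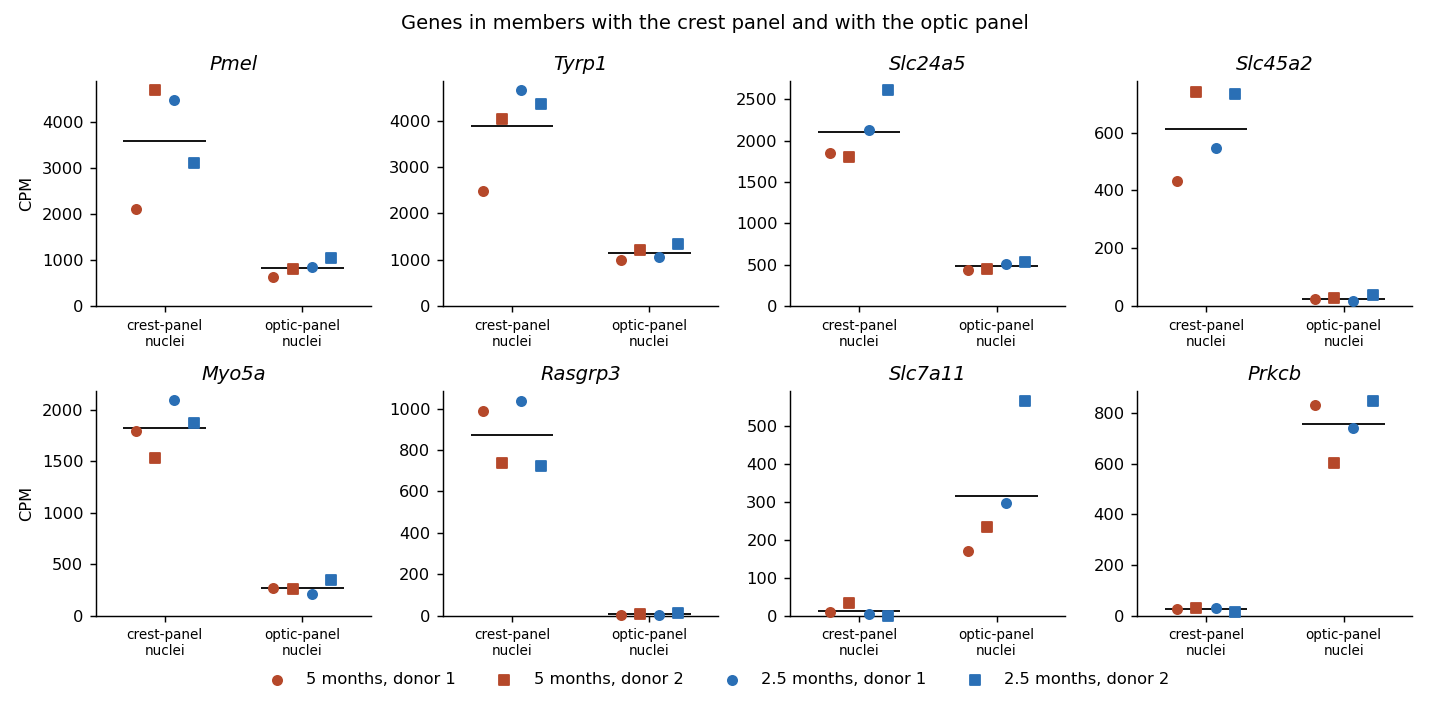
Each point is the CPM of 1 gene summed over the crest-panel nuclei (left) or optic-panel nuclei (right) of 1 library, with the mean of the 4 libraries as a line. Pmel, Tyrp1, Slc24a5, Slc45a2, Myo5a and Rasgrp3 are higher in crest-panel nuclei in every library, and Slc7a11 and Prkcb are higher in optic-panel nuclei in every library.

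Regulators and signalling genes divided too. Of 13 measured melanocyte transcription factors 10 were higher in crest-panel nuclei in every library, of which the panel used Sox10 and Pax3, and 2 were lower. Mitf itself was at 945 and 1323 CPM at 5 months and 1493 and 1694 CPM at 2.5 months in crest-panel nuclei, against 631 and 552 CPM at 5 months and 599 and 817 CPM at 2.5 months in optic-panel nuclei. Sox5, which modulates Sox10 targets, was 13.3 times and Tfap2a, a crest factor, 18.9 times as high in crest-panel nuclei. Tfec, a relative of Mitf found in pigment epithelium and macrophages, was at 0 to 8.83 CPM in crest-panel and 72.8 to 238 CPM in optic-panel nuclei. Of 15 measured genes of the receptor and ligand list 7 were higher and 3 lower in crest-panel nuclei in every library. Kit, Ednrb and Erbb3 are among the 7, and the panel that cut the sets fixes their direction. The lower ones were the channel gene Trpm1, 0.53 times as high in crest-panel nuclei, the adhesion gene Cadm1, 0.444 times, and the fibroblast growth factor receptor Fgfr1, 0.342 times. Met, the receptor for hepatocyte growth factor, was 21 times and Kitl, the ligand of Kit, 9.5 times as high in crest-panel nuclei. Of 19 measured genes of the uveal melanoma pathway 8 were higher in crest-panel nuclei in every library and 1 lower. Rasgrp3, a Ras activator that acts downstream of Gnaq in uveal melanoma, was at 989 and 739 CPM at 5 months and 1035 and 725 CPM at 2.5 months in crest-panel nuclei, against 4.64 and 8.37 CPM at 5 months and 4.7 and 14.9 CPM at 2.5 months in optic-panel nuclei. The protein kinase C genes went opposite ways. Prkca was 5.18 times and Prkce 5.24 times as high in crest-panel nuclei. Prkcb was at 14.8 to 29.8 CPM there, against 602 to 847 CPM in optic-panel nuclei.

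Outside the lists, the genes furthest apart in all 4 libraries included, on the crest side, Itga9 (an integrin, 961 to 1531 CPM in crest-panel and 9.39 to 27.8 CPM in optic-panel nuclei) and Insc (a spindle adaptor, 315 to 569.5 CPM and 0 to 4.7 CPM). In the same order Scn8a, a sodium channel, was at 872 to 1072 CPM and 14.9 to 32.1 CPM and the actin nucleator Fmn1 at 4180.1 to 5244 CPM and 44.6 to 190.2 CPM. On the optic side they included Kcnip4, a potassium channel partner, at 29.6 to 295 CPM in crest-panel and 5333 to 12128 CPM in optic-panel nuclei. Gja1, or connexin 43, was at 0 to 44.1 CPM and 798 to 1188 CPM in the same order. Npsr1, the neuropeptide S receptor, was at 0 to 44.1 CPM and 942 to 2518 CPM and the bicarbonate transporter Slc4a4 at 33.1 to 78.9 CPM and 1144 to 3977 CPM. The optic-panel genes were shared in part with the excluded pigmented muscle nuclei, where Gja1 was at 629 to 764 CPM and Kcnip4 at 4198 to 5539 CPM.

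Clustering of the members' own RNA gave 9 clusters, which are numbered and described by the genes that lead them. Cluster 2 held 199 nuclei, of which 99.5% had crest-panel UMIs and 2.01% at least 2 optic-panel UMIs. Optic-panel nuclei were spread over clusters 1, 3 and 4, with 219, 147 and 81 nuclei and 89.5%, 88.4% and 96.3% of them with at least 2 optic-panel UMIs. Cluster 1 was led by the amino acid transporters Slc38a11 and Slc38a8, cluster 3 by Bmpr1b, Tex11 and the water channel Aqp1, and cluster 4 by Megf11, Fbn2, Fbln1 and Zic4. Of cluster 1, 34 and 102 nuclei came from the 5-month libraries and 76 and 7 from the 2.5-month libraries, so donor 2 of 2.5 months had few of them. The other clusters held more marker RNA of other cell types. Cluster 5 (54 nuclei) had 13696 CPM of the rod markers, against 3098 to 3533 CPM in clusters 1 to 4. Cluster 6 (34 nuclei) was led by stromal genes such as Pdgfra and Col12a1 and cluster 9 (17 nuclei) by cone genes such as Arr3 and Opn1mw. Clusters 7 and 8 (26 and 24 nuclei) were led by neuron genes, with 3409 and 3012 CPM of Snap25 and Syt1, against 168 to 230 CPM in clusters 1 to 4, and with medians of 6252 and 4516.5 UMIs per nucleus. Cluster 7 held 22 nuclei at 5 months and 4 at 2.5 months. No doublet caller was run, so nuclei captured together with another cell were not removed.

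Against the retinal pigment epithelium, the members were higher in most crest genes and in 4 optic factors, and lower in genes of the visual cycle. The pigment epithelium was taken as nuclei with at least 2 UMIs of Rpe65. There were 64 and 142 in the 5-month and 117 and 99 in the 2.5-month libraries. They met the same limits on muscle, collagen, neuron, glia and mitochondrial genes, but no melanin criterion was applied to them. The 5 melanin genes summed to 1136 to 2000 CPM in these nuclei and to 12307 to 14860 CPM in members. Genes of the rules were not tested. Both classes were cut on the RNA of these nuclei, so calls describe the classes as cut. Of 8733 genes, 1174 were higher (13.4%) and 1201 lower (13.8%) in members by edgeR's quasi-likelihood test with library as a block, at an adjusted p under 0.05. Of 9 tested crest melanocyte genes 7 were higher and 0 lower, with a median log2 fold change of 1.77, beside -0.02 over all genes tested. Pax3 was at 173 and 165 CPM at 5 months and 245 and 389.8 CPM at 2.5 months in members, against 20.01 and 6.88 CPM at 5 months and 6.91 and 48.4 CPM at 2.5 months in pigment epithelium nuclei (adjusted p = 5.67e-08, log2 fold change 3.62 ± 0.28 SE). Ednrb was at 244 and 216 CPM at 5 months and 295 and 529 CPM at 2.5 months, against 12 and 17.2 CPM at 5 months and 32.3 and 61.1 CPM at 2.5 months (adjusted p = 7.57e-09, log2 fold change 3.29 ± 0.21 SE). Sox10 did not pass, at 95.2 and 146 CPM at 5 months and 108 and 103 CPM at 2.5 months in members, against 92 and 113 CPM at 5 months and 94.5 and 56 CPM at 2.5 months in pigment epithelium nuclei (adjusted p = 0.417, log2 fold change 0.23 ± 0.19 SE). Mitf did not pass either (adjusted p = 0.0817, log2 fold change 0.44 ± 0.18 SE). At the fixed depth the pigment epithelium nuclei had a crest-panel UMI in 20.6% and 15.4% at 5 months and 10.9% and 8.25% at 2.5 months.

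Of 9 tested pigment epithelium genes outside the rule, 9 were lower in members. Rgr, an opsin of the visual cycle, was at 65 to 80.6 CPM in members and 2147 to 4332 CPM in pigment epithelium nuclei (adjusted p = 7.06e-11, log2 fold change -5.64 ± 0.21 SE). Ttr, which carries retinol with its binding protein, was at 276 to 608 CPM, against 1693 to 8408 CPM (-3.39 ± 0.26 on the log2 scale). Otx2 was at 93.7 to 191 CPM, against 375 to 592 CPM (-1.89 ± 0.17). Among the optic factors, Pax6 (2.21 ± 0.20), Otx1 (6.10 ± 0.57), Rax (1.08 ± 0.28) and Zic1 (4.97 ± 0.44) were higher in members and Otx2 and Six3 lower. The called genes furthest higher in members had 0, 1 or 2 UMIs in the pigment epithelium, except Npsr1. Zic4, a zinc finger factor, had 274 UMIs in members and 1 in the pigment epithelium, a ratio of 172-fold (exact 95% counting interval 30.6 to 6818) after division by the summed UMIs. Wnt16, a secreted Wnt ligand, had 207 and 1, a ratio of 129.9-fold (exact 95% counting interval 23.1 to 5157). Matn3, a matrix protein, had 346 and 2, a ratio of 109-fold (exact 95% counting interval 29.8 to 900.3). Tfec had 174 and 1, a ratio of 109-fold (exact 95% counting interval 19.3 to 4339). Of the UMIs of these 4 genes in members, 0.966% to 2.92% lay in crest-panel nuclei. Npsr1 was at 632 to 1157 CPM in members and 3.44 to 20.01 CPM in pigment epithelium nuclei (adjusted p = 4.5e-10, log2 fold change 6.16 ± 0.29 SE). Defb9, Otx1 and Gm39075 were among the 10 as well. Lrrc75a and Fbxw25 had 79.3% and 96% of their UMIs in crest-panel nuclei and 0 UMIs in the pigment epithelium. They were at least 12.1-fold and 10.5-fold higher in members at a floor of 3 counts over the class.

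Lower in members were Tshr, the thyrotropin receptor, at 2.44 to 20.7 CPM in members and 1133 to 2095 CPM in pigment epithelium nuclei (adjusted p = 1.18e-09, log2 fold change -7.27 ± 0.38 SE). Sema3c, an axon guidance ligand, was at 6.04 to 7.32 CPM and 823 to 1314 CPM (adjusted p = 2.75e-11, log2 fold change -7.25 ± 0.24 SE). The factor Hnf4a had 0 UMIs in members and 75 in the pigment epithelium, at least 39.8-fold lower. The integrin Itgb6, the amino acid transporter Slc7a10, the carbonic anhydrase Car12 and the genes E130120K24Rik, Gm14133, Gm3764 and Gm13589 completed the 10.

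Of the melanin and ion transport list, 5 of 8 tested genes were higher in members than in the pigment epithelium and 1 lower, median 1.57. Of the trafficking list 9 of 25 were higher and 3 lower, median 0.18. Only the members were chosen for melanin-gene RNA, and the part of this choice in the calls was not tested. Slc7a11 was at 107 to 245 CPM in members and 0 to 18.4 CPM in pigment epithelium nuclei (adjusted p = 5.38e-08, log2 fold change 4.56 ± 0.35 SE). Mlph was at 310.4 to 550.01 CPM and 4 to 28 CPM (adjusted p = 4.55e-09, log2 fold change 4.31 ± 0.26 SE). Rab38, which routes melanosome cargo, was at 429 to 737 CPM and 24 to 89.9 CPM (adjusted p = 3.04e-07, log2 fold change 3.35 ± 0.30 SE). Lysosome and autophagy genes were higher for 9 of 17 and lower for 0, median 0.65, among them the proteases Ctsb (0.68 ± 0.17) and Ctsl (1.23 ± 0.17), the hexosaminidase Hexa (1.23 ± 0.23) and the membrane glycoprotein Gpnmb (3.33 ± 0.20). Interferon and MHC class I genes were positive for 16 of 16, with 7 higher and 0 lower, median 0.79. Ifit3 was at 27.2 to 65.9 CPM in members and 6.91 to 17.2 CPM in pigment epithelium nuclei (adjusted p = 0.000525, log2 fold change 1.78 ± 0.33 SE), and Parp14 had a log2 fold change of 1.97 ± 0.43. Ribosomal protein genes had 0 called of 23, with 18 negative and a median of -0.13.

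**Figure D4:**
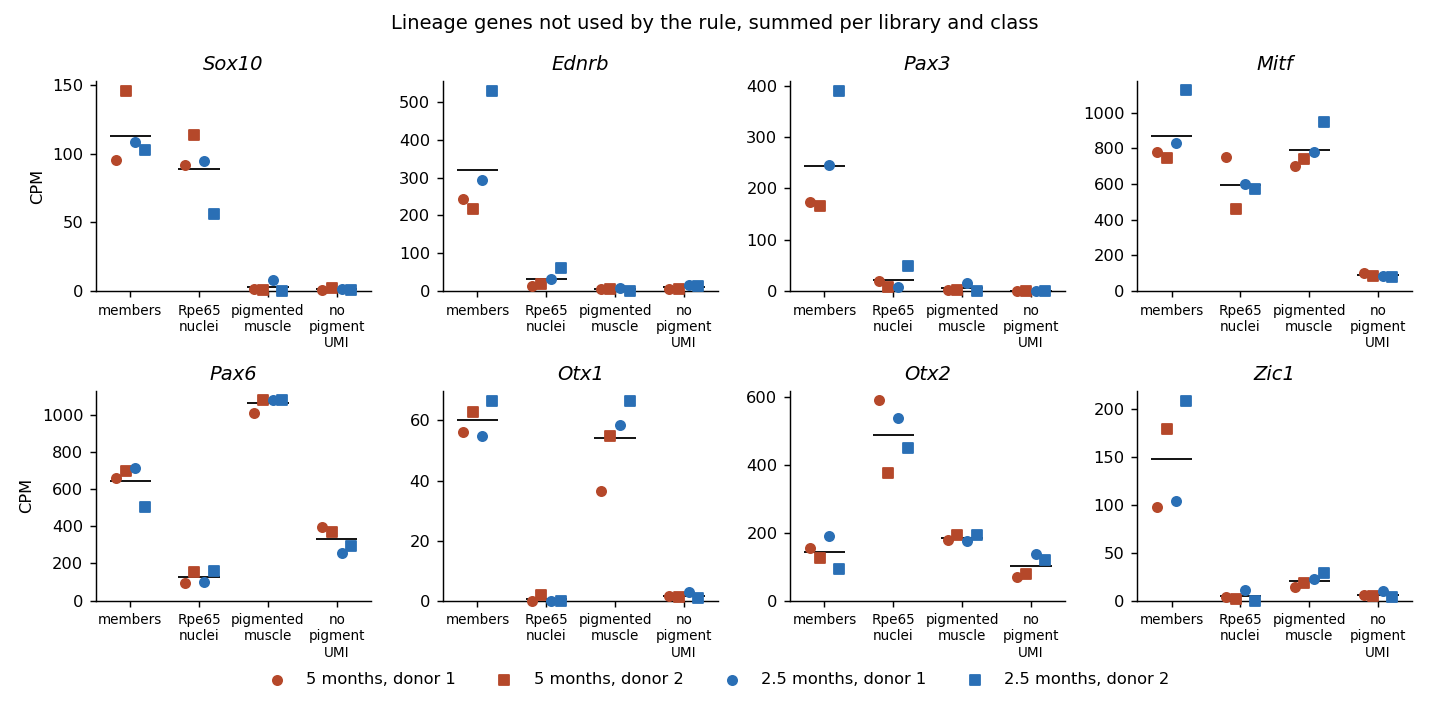
Each point is the CPM of a lineage gene summed over a class in 1 library, with the class mean as a line. Classes from left to right are the members, the pigment epithelium (Rpe65) nuclei, the pigmented muscle nuclei and nuclei with rod-gene UMIs and no melanin-gene UMI. Ednrb and Pax3 are highest in members, the points of members and Rpe65 nuclei overlap for Sox10, and Pax6 and Otx1 are also high in the pigmented muscle nuclei.

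Against pigmented smooth muscle nuclei, which meet the same rule but have at least 3 muscle UMIs, the genes furthest higher in members were those of the crest-panel nuclei. Such nuclei numbered 204 and 350 in the 5-month and 137 and 94 in the 2.5-month libraries. Of 9915 genes, 1139 were higher (11.5%) and 1031 lower (10.4%) in members. Of 9 tested crest melanocyte genes 8 were higher and 0 lower, with a median of 2.71, beside 0.00 over all genes tested. Sox10 was at 95.2 and 146 CPM at 5 months and 108 and 103 CPM at 2.5 months in members, against 1.46 and 0.749 CPM at 5 months and 8.08 and 0 CPM at 2.5 months in pigmented muscle nuclei (adjusted p = 5.87e-10, log2 fold change 5.73 ± 0.37 SE). The 10 genes furthest higher in members had 92.6% to 97.3% of their UMIs in crest-panel nuclei. Among them Insc was at 83.6 to 233 CPM in members and 0 to 2.93 CPM in pigmented muscle nuclei (adjusted p = 5.95e-11, log2 fold change 6.28 ± 0.34 SE). Cdh1 had 207 UMIs in members and 3 in pigmented muscle, a ratio of 76.6-fold (exact 95% counting interval 25.9 to 375). Nr4a3, an immediate early nuclear receptor, had 75 and 0 UMIs, at least 27.8-fold higher in members. Gjb6, Gjc3, Sh3tc2 (a gene of myelinating glia), the potassium channel gene Kcnk5, A330049N07Rik, G630064G18Rik and Gm10067 were the others.

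The optic-side factors divided between these classes. Zic1 was at 97.7 and 179 CPM at 5 months and 104 and 209 CPM at 2.5 months in members, against 14.6 and 18 CPM at 5 months and 22.2 and 28.5 CPM at 2.5 months in pigmented muscle nuclei (adjusted p = 1.46e-09, log2 fold change 2.88 ± 0.20 SE). Zic2 was higher too (3.44 ± 0.60). Pax6 was lower in members (adjusted p = 2.6e-05, log2 fold change -0.74 ± 0.11 SE) and Lhx2 as well (-1.51 ± 0.20). Otx1 did not pass (adjusted p = 0.655, log2 fold change 0.16 ± 0.18 SE). Among the 10 genes furthest lower, Tacr3, the neurokinin B receptor, was at 1.44 to 4.88 CPM in members and 288 to 463 CPM in pigmented muscle nuclei (adjusted p = 1.85e-13, log2 fold change -6.87 ± 0.23 SE). Chrm2, a muscarinic acetylcholine receptor, was at 0 to 26.9 CPM and 701 to 897 CPM (adjusted p = 9.45e-13, log2 fold change -5.87 ± 0.23 SE). The Wnt inhibitor Wif1 had 0 UMIs in members and 142 in pigmented muscle, at least 42.6-fold lower. Hhip, an inhibitor of hedgehog signalling, Bmp5, Bnc1, Abcc2, 4931422A03Rik, 9330158H04Rik and 9630028H03Rik were also among the 10. Smooth muscle genes outside the rule were lower for 3 of 3 tested, with Tagln at 11.6 to 18.8 CPM in members and 366 to 670.3 CPM in pigmented muscle nuclei.

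Lysosome and autophagy genes, which were higher in members than in the pigment epithelium, were lower in members than in pigmented muscle for 8 of 18 and higher for 0, with a median of -0.36. Gpnmb was at 1182 to 1338 CPM in members, 80.03 to 194 CPM in pigment epithelium nuclei and 2392 to 2897 CPM in pigmented muscle nuclei. Trpm1, a melanocyte and bipolar cell channel, lay between the other classes as well, at 1055 to 1281 CPM in members, 124 to 407 CPM in pigment epithelium nuclei and 2113 to 2742 CPM in pigmented muscle nuclei. Plcb4, a phospholipase C downstream of Gnaq, was lower in members than in pigmented muscle (adjusted p = 3.83e-13, log2 fold change -2.74 ± 0.10 SE) and higher than in the pigment epithelium (adjusted p = 0.00015, log2 fold change 1.11 ± 0.18 SE). Melanin and ion transport genes were higher than in pigmented muscle for 5 of 9 and lower for 1, median 0.29, with Slc45a2 the furthest apart of the higher ones (adjusted p = 6.83e-06, log2 fold change 1.37 ± 0.18 SE). Interferon and MHC class I genes, positive for 16 of 16 against the pigment epithelium, were positive for 6 and negative for 13 of 19 against pigmented muscle. There 1 was called higher and 3 lower, with a median of -0.25. Fibroblast markers were higher for 4 of 5 tested, Dcn, Pdgfra, Fbln1 and Col5a2. Cluster 6 had the most fibroblast RNA, with 2465 CPM of Col5a2, Dcn and Col1a1, against 48.1 to 191 CPM in clusters 1 to 4; its part in these calls was not tested.

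Members made up 1.78% (Wilson 95% interval 1.5% to 2.1%) and 3.62% (3.28% to 4.01%) of nuclei at 5 months, against 2.9% (2.54% to 3.31%) and 1.24% (1.01% to 1.52%) at 2.5 months. The libraries overlapped between the ages, and donors of the same age differed by more than their counting intervals. The means were 2.7 ± 1.31% at 5 months and 2.07 ± 1.17% at 2.5 months (SD, n = 2 each), a difference of 0.633 percentage points with p = 0.667 in a 2-sided exact permutation test whose smallest possible p is 0.333. Without donor 2 of 5 months the difference was -0.291 and without donor 2 of 2.5 months -0.196 percentage points, and with nuclei under 3 rod-gene UMIs as the denominator it was -0.485. How much choroid, iris or ciliary body stayed with each dissected retina is not given in the labels, and its part in these shares was not tested.

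Few genes of the members differed between the ages, and the 5 that were higher at 5 months had most of their 5-month RNA in a few large nuclei. Of 8709 genes, 5 were higher (0.0574%) and 2 lower (0.023%) at 5 months by edgeR's quasi-likelihood test at an adjusted p under 0.05, with 404 at an unadjusted p under 0.05. Donor number divides the libraries in the same way as Xist RNA. With donor number as a block none of these genes passed (edgeR adjusted p 0.203 to 0.269), and their log2 fold changes kept their signs. Leaving out a library left 1 animal at its age, assumed to vary like the others. It gave 62 higher and 19 lower without donor 1 of 5 months, 15 and 2 without donor 2 of 5 months, 97 and 27 without donor 1 of 2.5 months, and 66 and 32 without donor 2 of 2.5 months. Rbfox1, a neuronal splicing factor, was at 342 and 261 CPM at 5 months and 40.4 and 69.5 CPM at 2.5 months (adjusted p = 0.0235, log2 fold change 2.57 ± 0.31 SE). Nrg3, a neuregulin of neurons, was at 281 and 285 CPM at 5 months and 67.9 and 60.4 CPM at 2.5 months (adjusted p = 0.0235, log2 fold change 2.19 ± 0.26 SE). Both 5-month libraries lay above both 2.5-month libraries. Thsd7b, a thrombospondin-domain gene, was at 75.7 and 106 CPM at 5 months and 8.66 and 3.02 CPM at 2.5 months (adjusted p = 0.0235, log2 fold change 3.82 ± 0.47 SE), from 31 and 128 UMIs at 5 months and 6 and 1 UMIs at 2.5 months. The non-coding Meg3 was at 364 and 496 CPM at 5 months and 124 and 93.7 CPM at 2.5 months (adjusted p = 0.0467, log2 fold change 2.03 ± 0.29 SE), and the long non-coding Snhg11 at 459 and 729 CPM at 5 months and 141 and 148 CPM at 2.5 months (adjusted p = 0.0467, log2 fold change 2.12 ± 0.30 SE).

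Nuclei with more than 2 times the median UMIs of their library's members numbered 14 and 25 at 5 months and 6 and 2 at 2.5 months. Their share of members was 10.4% and 6.93% at 5 months and 2.8% and 2.17% at 2.5 months. Of the Rbfox1 UMIs they held 67.1% and 63.3% at 5 months and 0% and 4.35% at 2.5 months, and of the Thsd7b UMIs 74.2% and 89.1% at 5 months and 0% and 0% at 2.5 months. Of all member UMIs they held 23.4% and 17.4% at 5 months and 6.11% and 4.84% at 2.5 months, so the genes sat in them at 5 months well beyond their share of RNA. Without them 0 genes were called higher and 0 lower, with 359 at an unadjusted p under 0.05, and the log2 fold change, past no threshold, was 1.33 for Rbfox1, 0.96 for Nrg3, 0.47 for Meg3 and 1.25 for Snhg11. Without the members that had more than 3 UMIs of Snap25 and Syt1, 25 and 47 at 5 months and 26 and 18 at 2.5 months, 2 genes were called higher and 2 lower, and Rbfox1 was at 0.56 and Nrg3 at 0.54. Cluster 7 had 1799 CPM of Rbfox1 and 2101 CPM of Nrg3, against 36.7 to 86.7 CPM and 12.4 to 52.1 CPM in clusters 1 to 4. In the other nuclei Rbfox1 was at 1742 and 1380.4 CPM at 5 months and 1184 and 1784 CPM at 2.5 months, above the members in every library. The interaction of age and class, tested on 17647 genes with 48 called higher (0.272%) and 13 called lower (0.0737%), passed for Thsd7b, Rbfox1, Nrg3 and Meg3. The log2 difference was 2.37 ± 0.30 SE, adjusted p = 7.9e-11 for Rbfox1. It did not pass for Snhg11 (1.02 ± 0.28 SE, adjusted p = 0.0575).

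**Figure D5:**
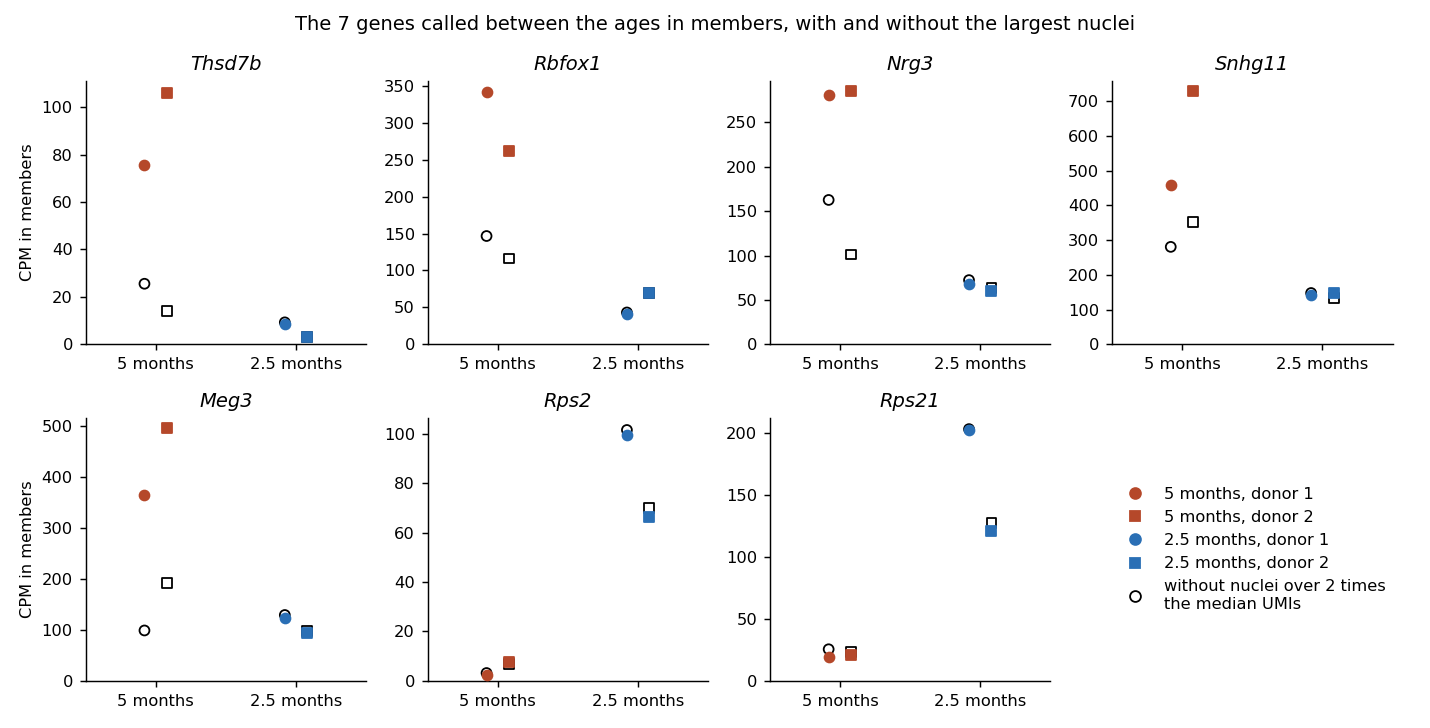
Filled points give the CPM of the 7 called genes in the members of each library, 5 months on the left and 2.5 months on the right of each panel, and open points the same without nuclei over 2 times the median UMIs. The open points of Rbfox1, Nrg3, Thsd7b, Meg3 and Snhg11 drop at 5 months and hardly move at 2.5 months, while those of Rps2 and Rps21 stay near the filled points.

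The 2 lower genes encode proteins of the small ribosomal subunit. Rps21 was at 19.5 and 20.7 CPM at 5 months and 202 and 121 CPM at 2.5 months (adjusted p = 0.0235, log2 fold change -2.94 ± 0.35 SE). Rps2 was at 2.44 and 7.45 CPM at 5 months and 99.6 and 66.5 CPM at 2.5 months (adjusted p = 0.0235, log2 fold change -3.71 ± 0.47 SE). The ages did not overlap for either gene. The same difference stood in the other nuclei, where Rps21 was at 14.9 and 19 CPM at 5 months and 219.7 and 98 CPM at 2.5 months and Rps2 at 4.42 and 4.7 CPM at 5 months and 103 and 53.3 CPM at 2.5 months. The interaction did not pass (log2 difference 0.14 ± 0.34 SE, adjusted p = 1 for Rps21). Without the large nuclei both missed the threshold at adjusted p = 0.118, with log2 fold changes of -2.73 for Rps21 and -3.74 for Rps2. Of 23 tested ribosomal protein genes 21 were negative, with a median of -0.22, beside 0.00 over all genes tested, and 2 were called. The next lower genes by unadjusted p did not pass. The lens crystallin gene Crybb2 had 0 and 2 UMIs at 5 months and 41 and 9 UMIs at 2.5 months, Taf1d was at 80.6 and 80.3 CPM at 5 months and 199 and 221 CPM at 2.5 months and the non-coding AC149090.1 at 151 and 225 CPM at 5 months and 459 and 541 CPM at 2.5 months.

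No gene of the melanin, melanosome, transcription factor, receptor, uveal melanoma, cAMP, immediate early, interferon, oxidative stress, lysosome, cell cycle or clock lists was called with age. Melanin and ion transport genes were negative for 8 of 8 tested, median -0.28, the crest melanocyte genes for 8 of 9, median -0.40, and the receptor and ligand list for 13 of 15, median -0.08. The share of crest-panel nuclei among members was lower in both 5-month libraries, as given above, and its part in these medians was not tested. Neither Ednrb (adjusted p = 0.997, log2 fold change -0.76 ± 0.30 SE) nor Pax3 (adjusted p = 0.889, log2 fold change -0.83 ± 0.27 SE) passed the threshold, though both 5-month libraries of members lay below both 2.5-month libraries for each. Within crest-panel nuclei alone Pax3 was at 529.7 and 623 CPM at 5 months and 838 and 954 CPM at 2.5 months and Ednrb at 759 and 815 CPM at 5 months and 1006 and 1287 CPM at 2.5 months. Both 5-month libraries were again the lower ones. Both genes are in the panel that cut this set, so the cut bears on these levels. Of the other panel genes in this set, Erbb3 was also lower in both 5-month libraries, and Sox10 and Kit overlapped between the ages. Sox10 overlapped between the ages in the members. Nr4a3 was at 24.4 and 6.62 CPM at 5 months and 53.4 and 60.4 CPM at 2.5 months (adjusted p = 0.415, log2 fold change -2.12 ± 0.52 SE), which did not pass, and of 5 tested immediate early genes 3 were positive and 2 negative. Interferon and MHC class I genes were positive for 13 of 18 with a median of 0.26, and lysosome genes for 11 of 17 with a median of 0.14. The cell division list had 0 of 12 genes with enough UMIs to be tested.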

How the data were processed

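Single-nucleus RNA was profiled on the 10x platform in 4 retinal libraries, 2 from 5-month and 2 from 2.5-month mice. The authors deposited matrices of UMI counts per gene and barcode, made with Cell Ranger 4.0.0 for the 5-month and 7.1.0 for the 2.5-month libraries per the file headers, with build mm10 per the submitters' processing notes; the settings for intronic reads are not given in the sources used here. Nuclei are not replicates, so the counts were summed per library and class. Sums were tested with edgeR 4.0.16 (R 4.3.3; TMM, filterByExpr, quasi-likelihood test, 2-sided, Benjamini-Hochberg adjustment over all genes tested, threshold 0.05), with library as a block between classes and no block between ages. The labels do not say how the animals were chosen or prepared, so p-values measure the spread between these 4 libraries. The members, gene lists and tests were chosen with earlier results of these data known.

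Leading genes were the 20 with the highest minimum ratio over libraries, with at least 50 UMIs over members and 5 in each library. In each test up to 10 called genes a direction were named by size of the log2 fold change, in class comparisons among genes with 1 sign in all libraries and at least 20 UMIs; where fewer than 5 passed with age, the 5 lowest unadjusted p of that direction were given. Genes given as examples of a list or between the panel sets were named after their values were seen. Clusters came from scanpy 1.11.5 and leidenalg 0.10.2 (1500 variable genes, 20 components, 15 neighbours, resolution 0.4) on the members alone. No doublet caller was run; nuclei over 2 times the median UMIs were left out as an alternative. Coordinates are from GENCODE release M21. Some marker genes are not reported here by name. Alternatives covered DESeq2 1.42.0, size factors, filters, depth, the pigment rule and each library; all splits by panel except that on a crest-panel UMI in the age test, and that on Snap25 and Syt1, were chosen after seeing the data. Tested on simulated data, the age test recovered 92.5% of 200 genes changed by 2 on the log2 scale among 8646 with 3 false calls, and the test against smooth muscle 91% among 9773 with 11. The simulation set the same dispersion for all genes, not estimated from these libraries, and changed only genes with many UMIs. It does not give the recovery for the real libraries.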

Additional observations from a re-analysis of the deposited data

Results flagged for a closer look

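Of the 7 genes called with age, 4 also passed edgeR's interaction of age and class. In these the age difference in members differed from that in all other nuclei. Over 17647 genes the interaction called 48 higher (0.272%) and 13 lower (0.0737%), so the 4 are a part of those called. The difference of the log2 fold changes was 2.98 for Thsd7b, 2.37 for Rbfox1, 1.94 for Nrg3 and 1.43 for Meg3. Thsd7b was at 75.7 and 106 CPM at 5 months and 8.66 and 3.02 CPM at 2.5 months in members, against 333 and 248 CPM at 5 months and 157 and 179 CPM at 2.5 months in other nuclei. Nrg3 was at 281 and 285 CPM at 5 months and 67.9 and 60.4 CPM at 2.5 months in members, against 2033 and 1627 CPM at 5 months and 1462 and 1900.3 CPM at 2.5 months in other nuclei, and Meg3 at 364 and 496 CPM at 5 months and 124 and 93.7 CPM at 2.5 months, against 2810.4 and 2578 CPM at 5 months and 1773 and 2120.1 CPM at 2.5 months. For these genes the members were below the other nuclei in every library. The large nuclei that held most of their member UMIs at 5 months made up 10.4% and 6.93% at 5 months and 2.8% and 2.17% at 2.5 months, and without them the age difference in members was 0.96 for Nrg3 and 0.47 for Meg3, while Thsd7b had too few UMIs to be tested. The make-up of the other nuclei was not held constant between the ages, and its part was not tested.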

How the results depend on the processing

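With 2 animals an age, counts of age calls moved with most settings. Against 5 genes higher and 2 lower, DESeq2 gave 11 higher, no filter 73 and 25 lower, a minimum of 10 UMIs in every library 0 lower, sums thinned to the smallest 11 higher, and the stricter pigment rule 25 higher. Without nuclei over 2 times the median UMIs 0 were higher and 0 lower. Only nuclei with a crest-panel UMI gave 26 and 1, and nuclei without one 1 and 1. The crest-panel nuclei gave 3 and 0, and the optic-panel nuclei 4 and 1. Leaving out nuclei over 3 UMIs of Snap25 and Syt1 gave 2 higher. Leaving out single libraries gave 15 to 97 higher and 2 to 32 lower, and 29 to 103 for the interaction. At an unadjusted p under 0.05 the settings with a 0 had 359 genes (no large nuclei), 260 (10 UMIs) and 171 (crest-panel nuclei). The cause of these shifts was not tested.

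With donor number as a replicate block 1 gene was higher and 0 lower, with 277 at an unadjusted p under 0.05. The 1 gene, Gm26870, named after its value was seen, is none of the 7 called without the block. Those had edgeR adjusted p of 0.203 to 0.269 with the block, and log2 fold changes such as 2.57 for Rbfox1 and -2.82 for Rps21. The labels do not say that donor numbers pair animals, and the deviations of same-numbered donors correlated at r = -0.0368 across 8709 genes, which are not independent replicates. With no replicate block the genes higher than in pigmented smooth muscle numbered 670, in place of 1139. The difference in member share was -0.485 over nuclei with fewer than 3 rod-gene UMIs, and -0.291 to 1.56 percentage points without single libraries, with -0.291 and -0.196 of the opposite sign. All 433 alternative values of the genes named between classes kept their direction and call. Of those of the age genes 111 did, 32 missed the threshold and 10 newly passed it. A gene that a setting did not test has no value in these counts. Genes with few UMIs in the smallest library, with 330904 UMIs in members, limit what could be called.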
